A study of Mus musculus with 30 samples.

Results

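SB203580 is a small molecule that occupies the ATP site of the stress-activated kinases p38α and p38β, and the question here was which transcripts it changed in mouse embryonic fibroblasts (MEFs) that had spent 8 h in added salt. The comparison set the wild type arrays with SB203580 and NaCl for 8 h against the wild type arrays with NaCl alone for 8 h, chosen by their titles and paired by replicate number. It used 4 of the 30 arrays of the study, 2 of each kind, and was read over all genes in both directions. The study exposed immortalised, exponentially growing wild type MEFs or MEFs without p38α to anisomycin, TNFα or NaCl, and measured total RNA on 2-colour Agilent arrays in 15 groups of 2. On every array the treated RNA was labelled with Cy5 and compared with a Cy3 pool made from 2 cultures of untreated wild type MEFs. Both groups compared here were wild type cells in medium with 100 mM NaCl added for 8 h, and they differed by SB203580 alone. The treatment protocol gives 10 µM SB203580 for 30 min ahead of the salt, whereas the array titles give 10 mM and 2 h, a conflict that could not be settled. The other wild type groups used below were NaCl for 45 min and for 2 h, each with and without SB203580, and SB203580 alone, which is titled 2 h. The cells are an immortalised line and the RNA is from whole cultures, so a loss of some cells and less of a transcript per cell cannot be told apart. According to the methods the replicates were independent experiments, and 2 arrays per group limit the precision of every value.

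Added NaCl draws water out of cells and activates p38 within minutes. Active p38 phosphorylates transcription factors and the kinases MK2, MSK1 and MSK2, and through MK2 it slows the decay of transcripts that carry AU-rich elements, such as those of cyclooxygenase 2 and several chemokines. Over the following hours cells also bring in or make compatible osmolytes, a programme that the transcription factor NFAT5 (TonEBP) drives through genes such as Akr1b3, Slc5a3 and Slc6a12. p38 further restrains other branches of signalling, and inhibitors of p38 are known to raise the activity of the JNK pathway in many cells, which acts on the AP-1 protein c-Jun. SB203580 also binds some kinases other than p38, so a change with the compound is not by itself a change through p38.

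The promoters of Ccl20, a chemokine gene among the largest falls, and of Jun, the largest rise among the called genes, are shown because each holds a known element of stress signalling close to its start. Each is the stretch of 250 bases before the RefSeq transcription start in the mouse build GRCm38.p6, written 5′ to 3′ on the strand of the gene. In Ccl20 (chr1:83116516-83116765, plus strand) capitals mark a match to the NF-kB motif, 71 to 80 bases before the start, and in Jun (chr4:95052223-95052472, minus strand) they mark the jun1 element TGACATCA, a variant of the AP-1 site, 38 to 45 bases before the start.
Ccl20: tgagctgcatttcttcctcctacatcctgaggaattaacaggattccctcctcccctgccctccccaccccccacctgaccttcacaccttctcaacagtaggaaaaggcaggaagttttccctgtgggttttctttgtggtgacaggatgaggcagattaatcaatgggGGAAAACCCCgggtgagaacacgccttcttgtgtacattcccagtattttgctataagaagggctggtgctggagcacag
Jun: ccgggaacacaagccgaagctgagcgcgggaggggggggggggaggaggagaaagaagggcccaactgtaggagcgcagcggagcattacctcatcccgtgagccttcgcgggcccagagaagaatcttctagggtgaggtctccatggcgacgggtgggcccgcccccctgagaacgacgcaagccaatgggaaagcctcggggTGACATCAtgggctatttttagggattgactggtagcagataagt
These letters are a description of the windows and say nothing of which factor was bound. Of 32851 mouse promoters of this length, 7.25% hold an NF-kB match and 2.93% the jun1 element on either strand. Among the genes that changed, described next, 25 of the lowered and 21 of the raised ones had a promoter in the table. Their counts are of genes with a match in any of their promoters, and some had more than 1. The percentages are over promoters, so counts and percentages are not like for like. An NF-kB match was in 5 of the lowered and 4 of the raised, the AP-1 site TGANTCA in 3 and 3 against 6.75% of all promoters, and TonE, the site of NFAT5, in 3 and 2 against 19.4%. The cAMP response element TGACGTCA was in 0 of the lowered and 1 of the raised (1.55% of all), and the CArG box in none of either (1.47%). The promoter of Ptgs2, a larger fall than that of Ccl20, held no match to these motifs and is not shown. The jun1 element, searched after the sequence of Jun had been seen, was in 0 of the lowered and in 1 of the raised, Jun itself.

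Of 15082 genes measured on all 4 arrays, SB203580 lowered 37 (0.245%) and raised 29 (0.192%) at 8 h of NaCl. The lowered genes included the neutrophil chemokine Cxcl5, Ptgs2, which encodes cyclooxygenase 2, the chemokine Ccl20, the transcription factor Foxf2 and the MAP kinase phosphatase Dusp4. The raised genes were led by Jun, with its relative Jund1 (now Jund) further down, and by the vesicle GTPase Rab3a, the alpha tubulin Tuba1 and the enamel protease Mmp20. Values are log2 ratios to the untreated pool, and the effect of SB203580 is the difference of the ratio with SB203580 from that without, in which the pool and the dye cancel. A gene was called when limma gave an adjusted p under 0.05 over all genes tested, from a fit to the 22 wild type arrays with the replicate number as a block. At an unadjusted p under 0.05 there were 1139 genes. A limma fit to the 4 arrays alone called 0 genes, with 1487 at an unadjusted p under 0.05, so the calls rest on the spread estimated over the other wild type groups. The counts also moved when an array was left out. Leaving out the NaCl array of the first pair gave 91 lower and 74 higher, and that of the second pair 6 and 14. Leaving out the SB203580 array of the first pair gave 7 and 11, and that of the second pair 15 and 9.

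The median difference over all genes was 0.00 on the log2 scale, with a 5th percentile of −0.39 and a 95th of 0.41. Both pairs had the same sign in 58.0% of all genes. In all 66 genes called, both pairs had the same sign and the arrays of the groups did not overlap, which being called on these arrays largely entails. Of all genes tested, 14.7% had both SB203580 arrays below both NaCl arrays and 14% had them above. The median difference was −0.98 over the lowered and 1.15 over the raised, and the smallest were 0.59 and 0.63 in size. Without any test, 23 genes were lower by at least 2-fold in both pairs, of which 12 were called, and 20 were higher, of which 15 were called.

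**Figure D1:**
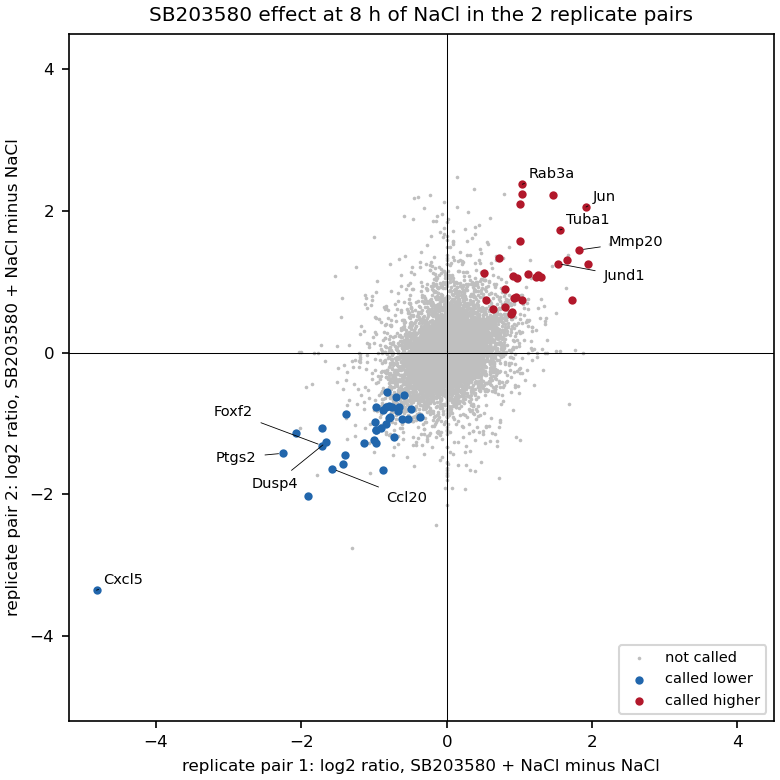
Log2 difference of SB203580 plus NaCl 8 h from NaCl 8 h in the first replicate pair (x axis) and in the second (y axis), 1 point per gene. Grey points were not called, the 37 blue points were called lower and the 29 red points higher, and every called gene lies in the quadrant where both pairs have its sign.

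Cxcl5 and Ccl20, from the list of chemokines, were among the genes lowered most. Cxcl5, which attracts neutrophils, had log2 ratios of 4.82 and 5.14 with NaCl, the highest mean of all genes induced on both arrays, and of 0.00 and 1.79 with SB203580. Its Cy5 signal was not well above background on either array with SB203580, and both channels were so on 1 of the 4 arrays. The fitted difference of −4.09 (SE 0.39, adjusted p = 0.00138) thus stands for a level at least 8.88-fold lower by the signals of the scanning software. With normexp background correction the difference was −2.05, smaller in size than this bound, so the bound depends on the background correction. Ccl20, the ligand of the receptor CCR6, read 2.41 and 2.87 with NaCl and 0.84 and 1.23 with SB203580. It fell 3.05-fold (log2 difference −1.61, SE 0.29, adjusted p = 0.0314) and still stood above the pool in both arrays with the inhibitor. The growth factor Gdf6, a bone morphogenetic protein, had ratios of 1.22 and 0.84 without and −0.16 and −0.02 with SB203580, a log2 difference of −1.13 (SE 0.21, adjusted p = 0.037). Fst, which encodes the activin antagonist follistatin, went from 0.68 and 0.60 to −0.33 and −0.64 (difference −1.12, SE 0.12, adjusted p = 0.0161), so that both arrays with SB203580 were below the untreated pool.

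Ptgs2, the inducible enzyme of prostaglandin synthesis, had log2 ratios of 3.29 and 2.56 with NaCl and of 1.04 and 1.13 with SB203580. This was a 3.58-fold fall (difference −1.84, SE 0.35, adjusted p = 0.04), seen by both of its probes at −1.63 and −2.05. It was not called by limma without the replicate block (adjusted p = 0.454), with the brightest probe alone (adjusted p = 0.106) or with any 1 of the 4 arrays left out (adjusted p from 0.0542 to 0.369), where the difference ran from −1.39 to −2.29. Zfp36l1, which encodes a protein that binds AU-rich elements and hastens mRNA decay, read 0.67 and 1.21 without and −0.30 and 0.12 with the inhibitor (difference −1.03, SE 0.17, adjusted p = 0.0161).

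Dusp4, Egfr and Ccnd1 come from the lists of MAP kinase phosphatases, growth factor feedback and the cell cycle. Dusp4, whose product removes phosphate from MAP kinases in the nucleus, had ratios of 1.18 and 1.60 with NaCl and −0.48 and 0.33 with SB203580. Its difference was −1.46 (SE 0.23, adjusted p = 0.0157), and its probes gave −1.55 and −1.38. The receptor gene Egfr went from 1.18 and 1.45 to 0.38 and 0.53 (difference −0.86, SE 0.14, adjusted p = 0.0173), although its probes ranged from −0.15 to −1.21. Ccnd1, the cyclin of the G1 phase, held narrow values of 1.24 and 1.1 without and 0.55 and 0.48 with SB203580, a log2 difference of −0.66 (SE 0.12, adjusted p = 0.0362). The tyrosine phosphatase genes Ptprb (difference −0.98) and Ptp4a2 (−0.96), the scaffold gene Trib2 (−0.78) and the guanine nucleotide exchange factor gene Vav2 (−0.80) also fell. For Ptprb the probes disagreed, at −2.07, −1.12 and 0.25. No probe of Ptp4a2 was measured on all 4 arrays, so its difference partly sets unlike probes against each other, and it was −0.73 with spots marked as outliers kept. With those spots kept Vav2 was at −0.40 and not called.

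Further lowered genes were 5730453H04Rik (now Dsp, the desmosome protein desmoplakin) at −0.99, the caveolar coat gene Cav1 at −1.03, Phldb2 at −0.87, the cornified envelope gene Lor at −0.85 and the keratin gene Krt1-23 (now Krt23) at −1.39, which was not called with marked spots kept (adjusted p = 0.326). Foxf2, a forkhead factor of mesenchymal cells, went from 2.92 and 2.71 to 1.21 and 1.39, so that it fell 2.86-fold and remained above the pool (difference −1.51, SE 0.17, adjusted p = 0.00208). Of the remaining lowered genes, the small heat shock genes Cryab (−0.92) and Hspb6 (−0.71), Apbb2 (−1.21), the T cell kinase gene Txk (−1.27), 9530076L18 (−1.60), A030004J04Rik (now Prr9, −1.42) and A930038C07Rik (now Ndnf, −1.12) ranged from −0.71 to −1.60. Over the alternative settings given below, Apbb2 ran from −1.33 to −0.27 and was called in 6 of 14. Over the same settings Txk ran from −1.52 to −0.64, 9530076L18 from −1.99 to −0.83 and A930038C07Rik from −1.24 to −0.62. 1810019J16Rik (now Kdf1) was not well above background on Cy5 in either group, so no fold is given. In Fli1 (−0.75) 2 probes had opposite signs, at 0.45 and −1.94. The other lowered genes, Prss35 (−0.78), 1110018M03Rik (now Fibin, −0.76), the histidine decarboxylase gene Hdc (−0.73), Wdr43 (−0.68), Adamts9 (−0.65), C330017I15Rik (now Pus7, −0.64) and Vnn1 (−0.59), had the smaller differences. C330017I15Rik was at −0.42 and not called with marked spots kept. The probes of Adamts9 gave −0.49, −0.08 and −1.37.

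All 37 lowered genes had a mean above the untreated pool with NaCl, and 36 of them were called above it, where 14.1% of the 16308 genes measured were called above the pool with NaCl. The exception was the death ligand gene Tnfsf10, with ratios of 0.16 and 0.20 that fell to −0.73 and −0.61. Since the NaCl arrays enter both measures, this is a description of where the lowered genes started. With SB203580, 17 of the 37 were still called above the pool, 18 were not called against it and 2 were under it, where 14.6% of the genes measured in that group were above and 13.7% under. With SB203580 alone, 32 of them were measured, of which 7 were under the pool (15.5% of all genes measured there) and 3 above it (19.9%).

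**Figure D2:**
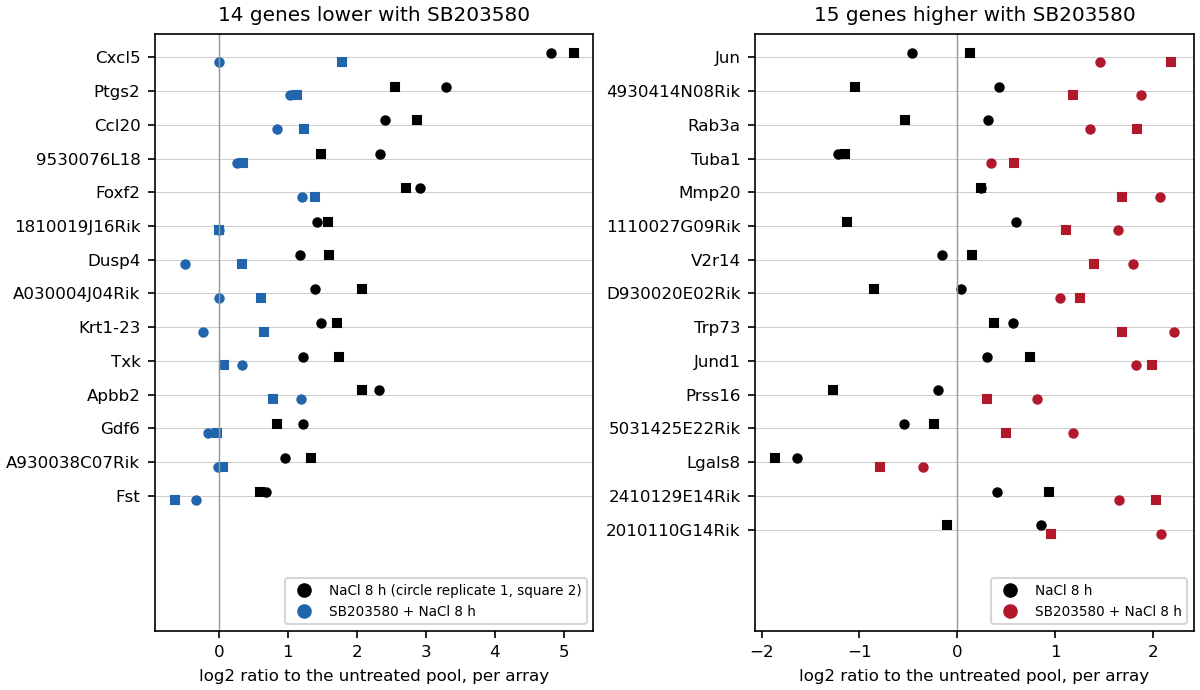
Log2 ratio to the untreated pool (x axis) on each array for 14 of the 15 genes with the largest fall (left) and the 15 with the largest rise (right) among those called at 2-fold or more in size. Black symbols are NaCl 8 h and coloured symbols SB203580 plus NaCl 8 h, with circles for the first replicate and squares for the second. In every gene the black and coloured symbols do not overlap.

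Of the raised genes, Jun was the largest. Jun encodes c-Jun of the AP-1 factor, and its log2 ratios were −0.46 and 0.13 with NaCl and 1.46 and 2.18 with SB203580. It rose 3.96-fold (difference 1.99, SE 0.31, adjusted p = 0.0157), from a level near that of untreated cells to one well above it on both arrays. Jund1, which encodes JunD of the same family, went from 0.30 and 0.74 to 1.83 and 2.00, a 2.62-fold rise (difference 1.39, SE 0.19, adjusted p = 0.0359). Fos, the usual partner of c-Jun, read −0.66 and 0.88 without and −0.71 and 0.64 with SB203580 and was not called (difference −0.14).

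Both tubulin genes among the raised differed in where they started. Tuba1 (now Tuba1a) was under the pool with NaCl, at −1.22 and −1.15, and reached 0.34 and 0.58 with SB203580 (difference 1.65, SE 0.15, adjusted p = 0.00248). 2410129E14Rik (now Tubb2b) was above the pool in both groups, at 0.40 and 0.94 and then at 1.66 and 2.04 (difference 1.18, SE 0.19, adjusted p = 0.0161). Tubulin genes are near-identical in parts, so a probe may read more than 1 of them.

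Mmp20, a protease of tooth enamel, went from 0.25 and 0.24 to 2.07 and 1.69 (difference 1.64, SE 0.19, adjusted p = 0.00208). Trp73, the p53 relative p73, went from 0.57 and 0.38 to 2.21 and 1.69 (difference 1.48, SE 0.19, adjusted p = 0.00474, and 0.75 with marked spots kept). Rab3a, of regulated secretion, had NaCl values on either side of the pool, at 0.32 and −0.54, and reached 1.36 and 1.84 (difference 1.71, SE 0.32, adjusted p = 0.0375). Lgals8, the galectin 8 gene, was under the pool in both groups, at −1.64 and −1.86 and then at −0.35 and −0.79, so that it stayed below untreated cells (difference 1.18, SE 0.14, adjusted p = 0.00208). The only probe of Lgals8 measured on all 4 arrays gave 1.00, and with marked spots kept the difference was 0.46 and still called. Other raised genes were 4930414N08Rik (now Kcnj15, a potassium channel) at 1.84, V2r14 (now Vmn2r37, a vomeronasal receptor) at 1.60, 1110027G09Rik (now Nipa1) at 1.64, D930020E02Rik (now Synb) at 1.56, the thymus protease gene Prss16 at 1.29, 5031425E22Rik at 1.23 and 2010110G14Rik at 1.15. 1110027G09Rik was well above background in both channels on 1 of the 4 arrays, and with normexp background correction its difference was 0.31 and not called (adjusted p = 0.148). Normexp also lowered the differences of Mmp20 (0.88), V2r14 (0.90) and Rab3a (1.04). Synb and V2r14 belong to families of near copies, so their probes may read relatives. Smaller rises were those of Pkia, an inhibitor of protein kinase A (1.03), the CREB relative Creb5 (1.01), Vat1 (1.00), Hspa12a (0.82), Lyzs (0.63) and Ifng (0.74), for which the probes gave 1.44 and 0.04. The remaining raised genes were Btn1a1 (1.11), Ndufa3 (0.89), AI315068 (now Vps8, 0.87), the RNA helicase gene Skiv2l (0.85), 5033423K11Rik (0.85), Ccdc10 (now Fsd1l, 0.72), BC029169 (now Fam20a, 0.71) and Pik4cb (now Pi4kb, 0.63). As in Ifng, 1 probe carried most of the change in Lyzs (0.12 and 1.13), Ndufa3 (1.59 and 0.19) and Ccdc10 (0.08 and 1.37).

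Most raised genes had not been called against the pool with NaCl alone. There 4 were above the pool (14.1% of all genes measured), 6 under it (13.7%) and 19 not called, and with SB203580 plus NaCl 26 of the 29 were above it, as against 14.6% of all 16792. With SB203580 alone 21 of the 26 measured were above the pool, where 19.9% of genes were. Jun had a mean ratio of 1.84 with SB203580 alone, close to its rise in salt, and the difference of the effects was 0.14 (adjusted p = 0.856). For Rab3a it was 1.61 with SB203580 alone and for Mmp20 1.03. A test of whether the effect at 8 h of NaCl differed from that of SB203580 alone called 18 of 32 lowered genes and 5 of 26 raised genes, where 1.86% of the 13562 genes tested were called in either direction. The genes were picked on the 8 h difference, which is a term of this contrast, so these counts are a description. Among the lowered ones the test called Foxf2 (effect in salt minus effect alone −2.05, adjusted p = 0.0011), Ptgs2 (−2.14, adjusted p = 0.032) and Ccl20 (−2.10, adjusted p = 0.016), whereas Dusp4 (−1.11, adjusted p = 0.056) was not called. Phldb2 had a ratio of −0.87 alone, the same as its difference in salt. The 5 raised ones were Creb5, V2r14, Lgals8, 5031425E22Rik and Skiv2l. SB203580 alone was read at another time than 8 h and against the pool, so the match is not exact. An offset of a gene from the pool enters the value alone but cancels in the effect in salt.

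Most genes that NaCl raised strongly were lower with SB203580 and kept over 50% of their log2 ratio. Of 180 genes at a mean of 2.5-fold or more over the pool with NaCl at 8 h, 159 were lower with SB203580, with a median difference of −0.50, where 7520 of all 15082 genes tested were lower, and 39 had a log2 ratio of at most 50% of that without it. That share was 21.7% (exact Clopper-Pearson interval 15.9% to 28.4%, which covers counting error over genes and no error between cultures). These genes were picked as high on the arrays that the difference uses, so the share is a description. Picked on the first NaCl array and read on the second pair, 65 of 225 genes met the rule (28.9%), and 136 were lower, with a median difference of −0.21. Picked on the second and read on the first pair, 71 of 319 did (22.3%), and 235 were lower, with a median of −0.26. The NaCl ratio of the pair that was read was not required to lie above the pool. Where it lay under the pool, meeting the rule need not mean a fall, so these shares are descriptions too. With the ratio of SB203580 alone subtracted from the SB203580 plus NaCl ratio, the share was 61.3%, or 100 of 163 genes. The NaCl ratio was left as it was, so an offset of a gene from the pool was removed from the other side only. SB203580 alone was also not matched in time, so this value is not a corrected share. On the linear scale of fold, with nothing subtracted, the share was 15%.

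Spp1, which encodes osteopontin, was among the genes that NaCl raised most, and had ratios of 3.16 and 3.99 with NaCl and 1.79 and 2.77 with SB203580, which was not called (difference −1.30, adjusted p = 0.0548). F2rl1, the receptor PAR2, had 3.52 and 3.30 and then 2.39 and 2.5 (difference −0.97, adjusted p = 0.0594). In both genes the values with SB203580 lay below those with NaCl. Hs3st1, a heparan sulfate sulfotransferase, had 2.80 and 3.42 and then 1.89 and 2.39 (difference −0.97, adjusted p = 0.0586). Smaller differences were those of 5430417L22Rik (−0.84), Steap (now Steap1, −0.61) and 4921509J17Rik (−0.26). Dusp1, the MAP kinase phosphatase MKP-1, read 2.79 and 2.89 with NaCl and 2.64 on the first array with SB203580, and its spot on the other array had been marked as an outlier. With marked spots kept, Dusp1 read 3.02 on that array, and its difference of −0.01 was not called.

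**Figure D3:**
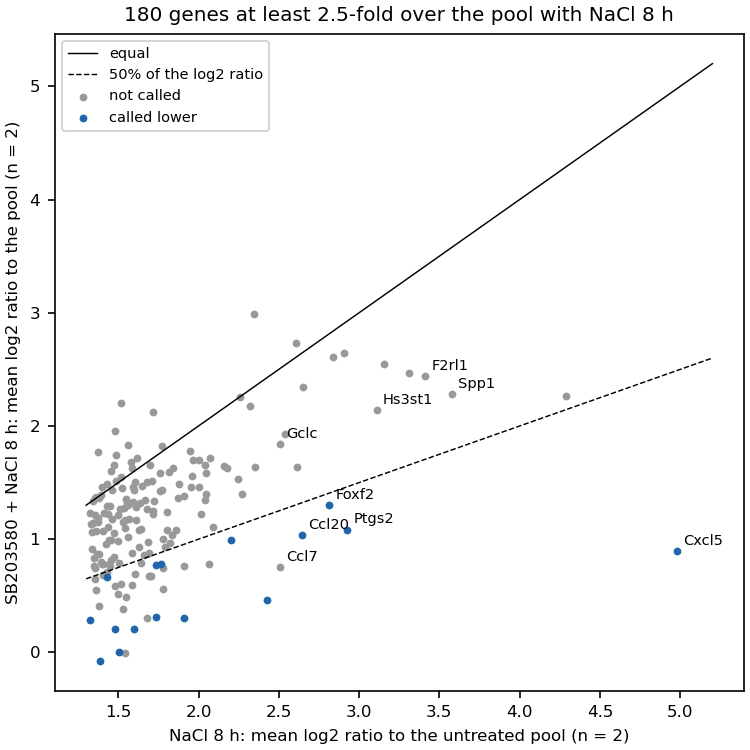
Mean log2 ratio to the pool with SB203580 plus NaCl 8 h (y axis) against that with NaCl 8 h (x axis), for the 180 genes at 2.5-fold or more with NaCl, 1 point per gene and 2 arrays per mean. Blue genes were called lower, the solid line marks equal ratios and the dashed line 50% of the log2 ratio, with 39 genes on or under it.

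The 28 lists of pathway genes held 543 genes of the array, of which 361 were tested and 12 called, where 0.245% of all genes tested were called lower and 0.192% higher. A pair of the lists holds genes that the study singled out on these samples. Of the 12, Ptprb and Ptp4a2 entered only through that pair, so the count is a description. The list of chemokines and cytokines had 2 of 25 tested members lowered (Cxcl5 and Ccl20), none raised and a median difference of −0.04, against 0.00 over all genes. Ccl7, which attracts monocytes, was as large as Ccl20 with ratios of 2.06 and 2.95 and then 0.28 and 1.22, but its difference of −1.76 had an adjusted p of 0.0598. Gm1960 (now Cxcl3) had a difference of −1.03 (adjusted p = 0.109). The prostaglandin list had 1 of 9 lowered (Ptgs2) and a median of −0.13, and the list of AU-rich element decay factors 1 of 5 (Zfp36l1) and −0.12. Zfp36, the founding decay factor of that list, had a difference of −0.12.

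Of the immediate early genes, 2 of 20 tested were raised (Jun and Jund1), none was lowered and the median was −0.06. Ier3 (−1.06, adjusted p = 0.219) and Nmyc1 (now Mycn, −0.76, adjusted p = 0.0523) were not called. Of 6 dual specificity phosphatases tested, Dusp4 was lowered while the median was 0.28, with Dusp14 at 0.80 (adjusted p = 0.273, and 0.41 with marked spots kept) and Dusp10 at 0.64 (adjusted p = 0.716). The list of ERK and growth factor feedback genes had 1 of 14 lowered (Egfr) and a median of −0.22, and the list of G1 and replication genes 1 of 20 (Ccnd1) and −0.04. The heat shock list had 1 of 15 lowered (Cryab) and a median of −0.15. The p38 pathway list had 0 of 14 called and a median of −0.02. In it Map2k6, the kinase MKK6 that activates p38, read −0.77 and −0.32 without and 0.11 and 0.35 with SB203580 (difference 0.78, adjusted p = 0.0572). Mapk14, the p38α gene, had 0.92 and 1.31 with NaCl and 0.72 on the only array with SB203580 that measured it, so it was not tested.

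No member was called in the lists of NF-kB feedback genes (9 tested, median −0.06), SRF and matricellular genes (12, −0.19), matrix (16, −0.06), metalloproteinases, their inhibitors and serpins (15, −0.06), sterol synthesis (18, 0.13), NRF2 targets (13, −0.09), AHR targets (7, −0.01) or the integrated stress response (10, 0.10). The same was true of p53 targets (16, 0.20), interferon and antigen presentation genes (19, 0.04), mitosis (20, −0.01), ID genes and TGF-beta targets (14, −0.10), glycolysis (15, −0.12) and Wnt and Notch genes (17, −0.03). In the ID and TGF-beta list Inhba, the activin A subunit, went from 1.72 and 1.33 to 0.46 and 0.30, the largest difference of that list at −1.14 (adjusted p = 0.0594). Gclc, of glutathione synthesis, had 2.48 and 2.53 and then 1.77 and 1.91 (difference −0.67, adjusted p = 0.164). Other large differences that were not called were those of Tnfaip3 (−0.82), Adamts1 (−0.83) and Spry4 (−0.84), Chac1 (1810008K03Rik in the files, −0.99) and, upward, Dhcr7 (0.93) and Eno2 (0.94). The genes that the study singled out on these samples were kept as a pair of lists, with 4 of 15 signalling genes lowered and a median of −0.67, and 3 of 12 others lowered and a median of −0.90, neither of which is independent evidence of a direction. Fibroblast markers ranged from −0.50 to 0.15 and markers of other cells from −0.35 to 0.13, with 0 of 9 called in each. The lowest fibroblast marker, the vimentin gene Vim, was at 0.11 with marked spots kept.

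**Figure D4:**
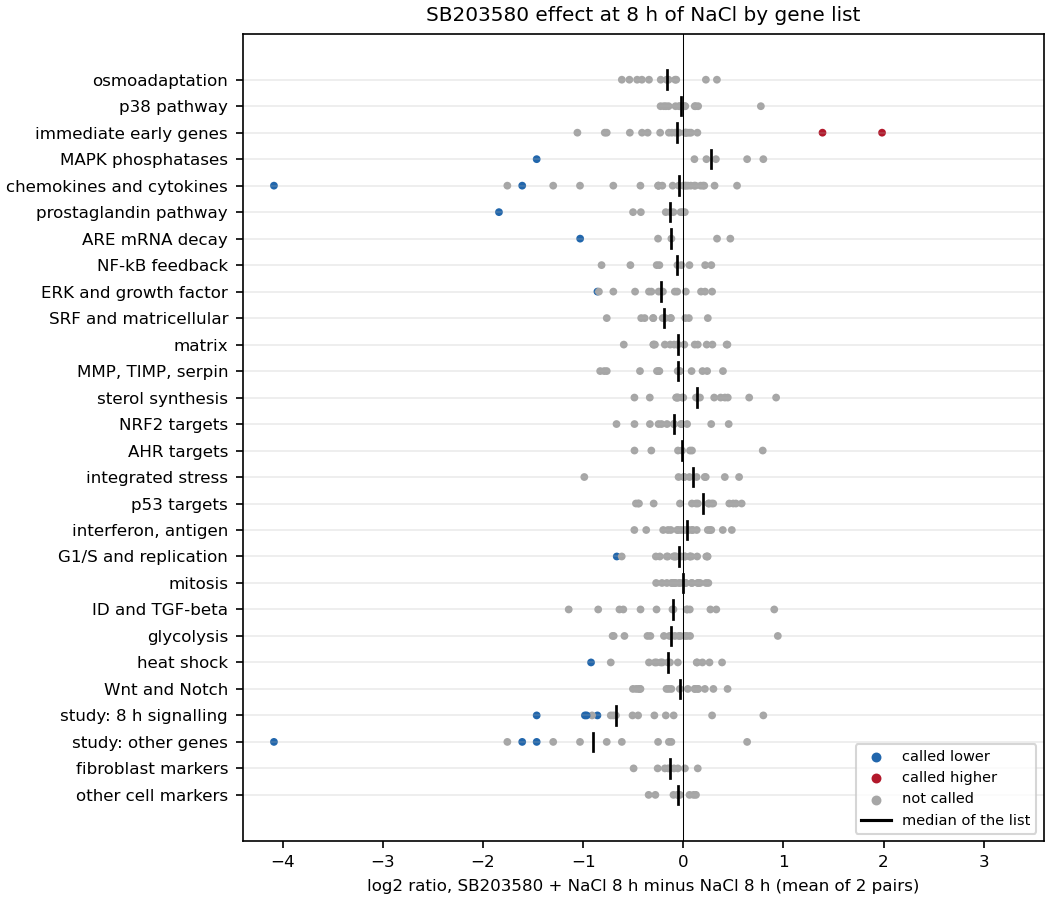
Log2 difference of SB203580 plus NaCl 8 h from NaCl 8 h, mean of 2 pairs (x axis), for the tested members of the 28 lists (y axis), 1 point per gene. Blue members were called lower, red ones higher and grey ones not, and the black bar is the median of the list. Most lists centre near 0, where the median of all genes lies.

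The osmolyte genes depended on how spots were handled. Of 20 osmoadaptation genes, 13 were tested with spots marked as outliers left out, of which 0 were called, with a median of −0.16. The scanning software had marked 9.04% and 30.0% of spots on the NaCl arrays and 7.54% and 28.1% on the arrays with SB203580, and spots of Akr1b3 and Sgk were among them. Akr1b3 encodes aldose reductase, which makes the osmolyte sorbitol, and its 3 probes then contributed to different arrays, so that its difference of −0.61 (adjusted p = 0.998) set unlike probes against each other. With the marked spots kept, 1 probe of Akr1b3 read 4.52 and 5.37 with NaCl and 3.03 and 3.66 with SB203580, and another read 2.61 and 3.91 and then 0.79 and 1.88. The remaining probe, the only one never marked, stayed near or under the pool, with a difference of −0.06. The mean of the 3 gave a difference of −1.19 (SE 0.14, adjusted p = 0.00145). Sgk (now Sgk1), an osmotically induced kinase gene, read 3.95 and 3.48 with NaCl and 2.02 and 2.5 with SB203580 once the marked spots were kept, a difference of −1.46 (SE 0.26, adjusted p = 0.0196). The mean ratios of both genes were then 2-fold or more above the pool on all 4 arrays. Hspa4l, another gene of this list, read 2.31 and 2.63 and then 2.04 and 2.02 with the spots kept, a smaller change that was not called.

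With the marked spots kept, more members of the chemokine list were called. The list then had 5 of 31 members lowered, Cxcl5 and Ccl20 with Ccl7 (difference −1.57, adjusted p = 0.0023), Spp1 (−1.30, adjusted p = 0.0429) and Ccl2 (−1.11, adjusted p = 0.01), which encodes the monocyte chemokine MCP-1. The ratios and the difference of Spp1 were the same in both settings, and only its adjusted p moved, from 0.0548. Ccl2, which was named after its value was seen, read 1.18 and 1.04 with NaCl and −0.03 and 0.03 with SB203580. Of all 21689 genes then tested, 81 were lowered and 45 raised.

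The genes called at 8 h were next read at the earlier times, on arrays that the 8 h comparison does not use. At 2 h of NaCl, 34 of the lowered genes were measured, 22 had a negative difference and the median was −0.08, against −0.97 for the same genes at 8 h. Of the raised genes 29 were measured, 25 had a positive difference and the median was 0.24 against 1.15. At 45 min the medians were −0.04 over 30 lowered genes, 21 of them negative, and 0.02 over 25 raised genes, 13 of them positive. Because the genes were picked at 8 h, these medians are a description. At 2 h only 4 of 16729 genes (0.0239%) were called, all lower, which were Zfp36l1 (−1.25), Fhl4 (−1.01), Hs3st1 (−1.38) and Ranbp6 (−1.02), and at 45 min 0 of 12180, with 597 at an unadjusted p under 0.05. Of the spots on the 45 min arrays, 15.4% and 44.8% with NaCl and 7.07% and 36.4% with SB203580 were marked as outliers. Fewer genes could thus be read at 45 min, and 0 calls there do not show that SB203580 had no effect.

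Zfp36l1 was the only gene called at both times, and its difference was −0.84 at 45 min, −1.25 at 2 h and −1.03 at 8 h. At the same times Ptgs2 had differences of −1.11, −0.85 and −1.84, while Foxf2 had −0.01, −0.14 and −1.51. Jun ran from −0.37 at 45 min to 0.40 at 2 h and 1.99 at 8 h. The difference between 8 h and 2 h was itself called for 1 of 14294 genes (0.007%), Ranbp6, an importin relative that was lower with SB203580 at 2 h in both pairs (−1.07 and −0.96) and higher at 8 h (0.43 and 0.46). Against 45 min it was called for 2 of 11644 (0.0172%), Cxcl5, which was at background at 45 min, and Mmp20, with −0.42 and −0.18 at 45 min and 1.83 and 1.45 at 8 h. For the other genes named here a difference between the times was thus not shown.

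**Figure D5:**
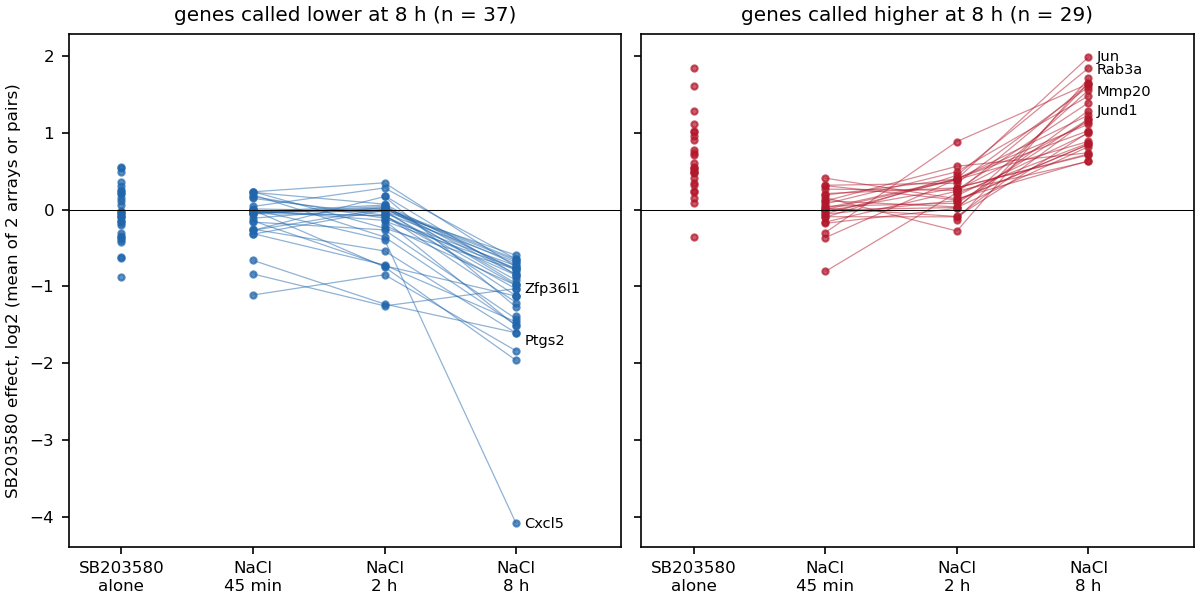
Effect of SB203580 (y axis, log2 difference or, for SB203580 alone, log2 ratio to the pool, mean of 2) with no stress and at 45 min, 2 h and 8 h of NaCl (x axis) for the genes called lower (left) and higher (right) at 8 h, 1 line per gene where it was measured. The genes were picked at 8 h, where most values lie farther from 0, and most lie near 0 at 45 min and 2 h.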

How the data were processed

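Total RNA was measured on 30 2-colour Agilent arrays, treated cells in Cy5 and the pool in Cy3. Feature Extraction (8.1.1.1 in the file headers, 9.1 in the submitters' processing notes) detrended the spot intensities and balanced the dyes with linear and LOWESS corrections, and the authors deposited the resulting log10 ratios with the spot and background intensities. The authors also deposited a table of 1 log2 value per probe, whose scale was judged from its values. Here log10 ratios were turned into log2, spots marked as outliers were left out, and spots and then probes were averaged per gene (33453 named probes, 21689 genes, of which 19948 matched a RefSeq symbol). A dim signal carried the software's surrogate value.

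R 4.3.3 with limma 3.58.1 fitted 11 group means and a replicate block to the 22 wild type arrays (lmFit and eBayes), with Benjamini-Hochberg adjustment over genes measured on all arrays compared. The code of the fit was run on simulated data with noise independent between arrays, which checks the code and not the calls reported here. Python 3.11.15, pandas 2.3.3, numpy 2.4.6, scipy 1.17.1 and matplotlib 3.10.9 did the rest. A group tested against the pool leaves out the spread of untreated cells. Between 91.1% and 95.8% of probes were well above background in Cy5 on the 4 arrays, with median Cy5 signals of 979 to 1562. Of the called genes, 35 of 37 lowered and 28 of 29 raised were so in both channels on all 4.

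The replicate numbers pair the arrays. The difference between the replicates had a correlation above 0.1 between wild type groups in 55 of 55 cases (0.13 to 0.65), and at 0.58 between the 2 groups compared. The sample labels name no batch of labelling or scanning. The value of each pair may therefore also be a value within a batch.

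Named genes were the 15 largest called changes per direction at 2-fold or more, up to 4 called and 2 other members per list, the genes the study singles out at 8 h, the 10 most induced by NaCl, up to 5 per difference between times or conditions, and Mapk14, 113 in all. A few genes are left unreported. Other genes were named after their values were seen. The comparison, the lists and the tests were chosen with earlier results of these data known. Alternatives were other designs, normexp background correction (offset 50) with loess, the deposited log2 table, centring, the brightest probe, probes well above background, marked spots kept, and each array left out. Only probes measured on all 4 arrays, and marked spots kept for the differences between effects, were alternatives chosen after seeing the data.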

Additional observations from a re-analysis of the deposited data

Results flagged for a closer look

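The effect of SB203580 at 8 h of NaCl differed from that at 2 h for 1 gene, which was higher at 8 h, and from that at 45 min for 1 higher and 1 lower gene, each by a contrast of the 2 effects in limma. For Ranbp6 the effect at 8 h minus that at 2 h was 1.46 on the log2 scale (SE 0.17, adjusted p = 0.0145), and both pairs were positive at 8 h and negative at 2 h. It was not called without the replicate block (adjusted p = 0.351), with normexp (0.62, adjusted p = 0.133) or without the second array with SB203580 (adjusted p = 0.0588). Against 45 min, Mmp20 differed by 1.94 (SE 0.27, adjusted p = 0.0402) and Cxcl5 by −4.09 (SE 0.56, adjusted p = 0.0402), the latter with ratios at background at 45 min. Cxcl5 was not called with normexp (−2.17, adjusted p = 0.0589) or without the second NaCl array, and Mmp20 was not called when any of 3 of the 4 arrays was left out.

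Against SB203580 without stress, 86 genes had a higher and 166 a lower effect at 8 h of NaCl, the times not being matched. Cxcl5 differed by −3.99 (adjusted p = 0.00443) and was called under every alternative run for this contrast. In the other 4 of the 5 with the largest difference, the ratio to the pool with SB203580 alone was larger in size than the effect in salt. That ratio also holds any offset of the gene from the pool, which cancels in the effect in salt but not here. No array of untreated wild type cells measured such an offset, and its part was not tested. Doc2g, a relative of synaptic calcium sensors, had an effect of 0.88 in salt and a ratio of −2.27 alone (difference 3.14, adjusted p = 0.0124). Its ratios with NaCl and no SB203580 were −2.64 and −2.50. With spots marked as outliers kept, the effect of Doc2g in salt was 0.08 and the difference 1.34 (adjusted p = 0.000217), and it was not called without the second NaCl or the first SB203580 array. Foxe1, a thyroid forkhead factor, had −0.31 in salt and −2.65 alone (difference 2.34, adjusted p = 0.0229), with 0.60 and no call under normexp (adjusted p = 0.0984). With NaCl and no SB203580 it stood as low, at −2.45 and −2.93. 4930448D08Rik had −0.32 in salt and 2.71 alone (difference −3.03, adjusted p = 0.016), which was −0.74 with normexp and not called without the block (adjusted p = 0.233). With NaCl and no SB203580 this gene read 2.08 and 1.20. Fos had −0.14 in salt and 2.32 alone (difference −2.47, adjusted p = 0.0408), with ratios of 2.40 and 2.25 on the arrays with SB203580 alone, and was not called without the block (adjusted p = 0.0795). As for Doc2g, the calls of Foxe1, 4930448D08Rik and Fos were lost with some arrays left out. Their differences then ran from 2.21 to 2.48 in Foxe1, −3.31 to −2.75 in 4930448D08Rik and −3.15 to −1.78 in Fos.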

How the results depend on the processing

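All 36 called genes named by the rule kept their sign in each of the 14 alternatives that gave a value for the gene, which for 7 of them were fewer than 14. With normexp 16 of the 36 moved by over 1.5 times. The call was lost only in the fit to the 4 arrays for 8 of them, among which were Cxcl5, Foxf2, A930038C07Rik, Lgals8, Mmp20, Tuba1 and V2r14, and under further alternatives for others. Of the named genes that were not called, 12 of 75 turned sign under at least 1. The number of calls was less stable. Leaving out 1 array gave 9 to 74 raised and 6 to 91 lowered genes, and 2 to 20 called list members, against 29, 37 and 12. The fit to the 4 arrays alone called 0 raised, 0 lowered and 0 list members, with few degrees of freedom and 1487 genes at an unadjusted p under 0.05. Without the replicate block 11 were raised and 19 lowered, all among those called with it, and the pairing thus moved the counts by over 1.5 times. Of the 36 named genes, 20 were called without the block. Normexp gave 64 lowered and 19 list members, the deposited log2 values gave 70 raised, 117 lowered and 30 list members, and marked spots kept 45 raised, 81 lowered and 28 list members. With a 2-fold limit beside the adjusted p, 18 were raised and 17 lowered, and with no test but 2-fold in both pairs 23 were lower. Which part of these shifts comes from more genes tested was not tested.

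The difference from 2 h was called for 0 genes in either direction without the replicate block (the difference of Ranbp6 was lost, as also with normexp and without the second array with SB203580), for 3 higher and 1 lower with normexp, and for 1 to 20 higher and 0 to 16 lower with an array left out. From 45 min it was called for 4 higher and 2 lower with normexp, and for 0 to 14 higher and 0 to 12 lower with an array left out. From SB203580 alone the counts of 86 and 166 became 25 and 44 without the block, 198 and 706 with normexp, and 12 to 247 and 7 to 564 with an array left out.

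The share of NaCl-induced genes at 50% or less was 15% on the linear scale. It was 61.3% after subtraction of SB203580 alone from the SB203580 plus NaCl ratio only, which is not a corrected share. Picked on the first array it was 20.0% with normexp, 17% with the deposited log2 values and 12.4% on the linear scale, and picked on the second 17.4% with normexp and 8.15% on the linear scale. The counts over the pool stayed within 1.5 times under the alternatives run.

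Signs turned in genes that were not called with marked spots left out. With an array left out, the log2 difference ranged from −2.02 to 0.79 in Akr1b3, −0.83 to 0.54 in Fos, −0.61 to 0.062 in Pola1, −0.35 to 0.11 in Zfp36, −0.58 to 0.13 in Map2k4, −0.0098 to 0.68 in Zfp36l2, −0.66 to 0.32 in Ptprd, −0.54 to 0.035 in Pdgfb, −1.01 to 0.020 in Vim, −0.52 to 0.0088 in Pdgfra and −0.69 to 0.17 in 4921509J17Rik. With the deposited log2 values Ptprd read 0.021 and Vim 0.17, with marked spots kept Vim read 0.11, with only probes measured on all 4 arrays Vim read 0.34 and Col5a1 −0.0051, and with only probes well above background Col5a1 read −0.0051. The cause of these turns was not tested. Signals near background limit Cxcl5 to a bound, and 2 arrays per group limit all values.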

Other observations

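With the spots marked as outliers kept, 81 of all 21689 genes tested were called lower and 45 higher. Of the 543 list members on the array, 28 were called in this setting, 23 lower and 5 higher. Of these 28, 16 had not been called and 8 not been measured on all 4 arrays without those spots. Apart from the chemokine and osmolyte genes, these included Plk2, a polo-like kinase gene, with log2 ratios of 1.56 and 1.55 with NaCl and 0.01 and 0.28 with SB203580 (difference −1.41, SE 0.23, adjusted p = 0.0119). Ddit4, an inhibitor of mTORC1, read 0.57 and 0.06 and then −0.55 and −0.85 (difference −1.01, SE 0.13, adjusted p = 0.00282), and Timp3, a metalloproteinase inhibitor, 0.69 and 0.76 and then −0.12 and −0.26 (difference −0.92, SE 0.18, adjusted p = 0.0335). In these 3 genes both ratios with SB203580 were below both with NaCl.

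The upward calls were Jun and Jund1, Map2k6 (difference 0.69, adjusted p = 0.0364), Mknk2, a kinase gene of translation initiation (0.65, adjusted p = 0.0126), and Herpud1, of the response to unfolded proteins, which read 0.80 and 0.39 and then 1.67 and 1.19 (0.83, SE 0.16, adjusted p = 0.0296). Id1 (−0.86) and Inhba (−1.14) of the TGF-beta list, Plaur, the urokinase receptor gene (−0.60), and Spred1, a brake on RAS signalling (−0.39), were also called lower in this setting. The ratios and the difference of Inhba were the same in both settings, and only its adjusted p moved, from 0.0594 to 0.0472. Of the genes in this section, Ddit4, Timp3, Mknk2, Herpud1 and Spred1 were named after their values were seen.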
